A study of Mus musculus with 11 samples.

Results

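The genes described here are 39 genes of the lysosome: 26 that encode proteases, lipid and sugar hydrolases, membrane proteins and regulators, and 13 that encode subunits of the vacuolar proton pump, the V-ATPase. They were chosen by name and function, with no threshold on a measured value but with earlier results of these data known. All 39 were found among the 21883 protein-coding genes of the mouse annotation. Chromatin accessibility was measured by ATAC-seq, a method in which a transposase cuts open DNA and tags it for sequencing, in alveolar macrophages sorted from lungs of C57BL/6 mice. The naive group (4 samples) came from mice without tumour cells. In the other groups KP or KP-GFP cells had been injected into the tail vein and tumour foci were left to form for 15 days (4 samples) or 30 days (3 samples). The KP cells are mouse lung adenocarcinoma cells. Which samples received the GFP-marked cells, the age and sex of the mice and whether mice were pooled are not known from the sources used here. Each group has 1 deposited peak list that stands for all its samples. The values below therefore carry no replicate error, and no test between conditions was possible. All intervals are 95% Wilson intervals and cover counting error over genes or peaks only.

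Lysosomes are acidic compartments in which cathepsins, lipases and glycosidases break down what a cell has taken up. The V-ATPase makes them acidic: its V1 sector hydrolyses ATP in the cytosol, and its V0 sector carries protons through the membrane. Alveolar macrophages depend on this system to clear surfactant, the lipid film of the air spaces, and to digest inhaled particles. In mammals many lysosomal genes are switched on by the MiT/TFE transcription factors, Tfeb and Tfe3 among them, which bind the E-box core CACGTG in promoters.

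The promoters of the 39 genes carried that E-box core more often than promoters in general. RefSeq promoter windows of 300 bp, running from 250 bases before to 50 bases after an annotated start on GRCm38.p6, the assembly that mm10 displays, were available for 32 of the 39 genes, 37 windows in all. CACGTG, a palindrome that reads the same on both strands, was in 12 of the 37 windows (32.4%, interval 19.6 to 48.5), each of a different gene, against 7.84% of the 21262 windows of all protein-coding genes and 10.4% of the windows whose gene had a naive peak at one end. The longer GTCACGTG, which contains the core and was searched on both strands, was in 8 windows (21.6%, interval 11.4 to 37.2). It was in 2.84% of all windows and 4.45% of those whose gene had a naive peak at one end. The 12 genes were Ctsa, Ctsd, Ctsl, Lgmn, Lamp1, Mcoln1, Gaa, Glb1, Atp6v0b, Atp6v0d1, Atp6v0e and Atp6v1a, so that proteases, membrane proteins, glycosidases and both sectors of the pump were among them. Other motifs were searched on both strands in the same way. The CCAAT box, with the letters CCAAT, was in 27.0% of the windows of the 39 genes and 38.2% of all windows, the GC box GGGCGG in 62.2% and 46.2%, the AP-1 site TGANTCA in 10.8% and 6.99%, and GAGGAAGT, a form of the PU.1 site, in 8.11% and 3.13%. In windows whose gene had a naive peak at one end the shares were 42.1%, 65.6%, 4.25% and 3.05%, in that order. Set beside those windows, the GC box was thus not more frequent in the 39 genes. A match is a description of the letters and does not show that a factor was bound.

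The 5 windows shown first belong to genes that had a peak at a gene end in all 3 lists and an E-box core in a window, with the strongest naive peak first. They lie at chr12:102439043-102439342 (Lgmn, minus strand), chr9:114400828-114401127 (Glb1, plus strand), chr13:64370471-64370770 (Ctsl, minus strand), chr8:105566015-105566314 (Atp6v0d1, minus strand) and chr16:44139210-44139509 (Atp6v1a, minus strand). Mcoln1, at chr8:3500269-3500568 on the plus strand, and Lamp1, at chr8:13158911-13159210 on the plus strand, were added after their values were seen, the first because a peak covered both of its E-boxes in 1 list alone and the second because it had 4 E-boxes and no peak. Each RefSeq sequence is given 5′ to 3′ on the strand of the gene, with the E-box cores in capitals.
Lgmn: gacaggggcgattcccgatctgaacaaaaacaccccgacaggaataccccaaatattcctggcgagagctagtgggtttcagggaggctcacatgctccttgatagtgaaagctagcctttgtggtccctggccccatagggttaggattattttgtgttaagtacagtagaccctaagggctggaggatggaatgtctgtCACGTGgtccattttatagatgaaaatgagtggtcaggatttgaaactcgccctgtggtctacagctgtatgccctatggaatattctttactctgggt
Glb1: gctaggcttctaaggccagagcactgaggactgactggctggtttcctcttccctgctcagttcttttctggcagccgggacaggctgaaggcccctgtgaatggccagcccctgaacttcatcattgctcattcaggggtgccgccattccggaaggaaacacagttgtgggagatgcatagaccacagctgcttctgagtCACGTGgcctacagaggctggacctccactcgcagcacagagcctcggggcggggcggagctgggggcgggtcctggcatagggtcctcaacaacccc
Ctsl: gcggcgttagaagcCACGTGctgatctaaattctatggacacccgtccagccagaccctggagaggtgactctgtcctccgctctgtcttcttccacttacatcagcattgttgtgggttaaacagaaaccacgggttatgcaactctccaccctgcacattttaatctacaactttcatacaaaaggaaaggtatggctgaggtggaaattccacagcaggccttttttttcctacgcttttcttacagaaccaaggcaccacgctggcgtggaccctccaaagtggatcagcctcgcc
Atp6v0d1: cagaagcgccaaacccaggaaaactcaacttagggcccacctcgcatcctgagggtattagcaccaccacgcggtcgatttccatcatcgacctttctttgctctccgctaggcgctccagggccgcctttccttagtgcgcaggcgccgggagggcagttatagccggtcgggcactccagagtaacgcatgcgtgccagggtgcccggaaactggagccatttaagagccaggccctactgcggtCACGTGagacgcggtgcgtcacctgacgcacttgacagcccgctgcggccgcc
Atp6v1a: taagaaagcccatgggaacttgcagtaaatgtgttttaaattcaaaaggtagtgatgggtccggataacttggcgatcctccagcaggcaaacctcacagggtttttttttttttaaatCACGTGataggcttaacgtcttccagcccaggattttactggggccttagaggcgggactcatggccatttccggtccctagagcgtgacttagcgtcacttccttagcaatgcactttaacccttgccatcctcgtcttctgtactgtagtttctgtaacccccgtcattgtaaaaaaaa
Mcoln1: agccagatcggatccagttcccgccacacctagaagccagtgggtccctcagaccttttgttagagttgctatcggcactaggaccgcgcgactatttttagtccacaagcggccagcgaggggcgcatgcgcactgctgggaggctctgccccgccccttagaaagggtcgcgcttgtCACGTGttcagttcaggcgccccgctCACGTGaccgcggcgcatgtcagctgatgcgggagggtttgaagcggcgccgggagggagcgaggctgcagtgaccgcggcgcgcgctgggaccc
Lamp1: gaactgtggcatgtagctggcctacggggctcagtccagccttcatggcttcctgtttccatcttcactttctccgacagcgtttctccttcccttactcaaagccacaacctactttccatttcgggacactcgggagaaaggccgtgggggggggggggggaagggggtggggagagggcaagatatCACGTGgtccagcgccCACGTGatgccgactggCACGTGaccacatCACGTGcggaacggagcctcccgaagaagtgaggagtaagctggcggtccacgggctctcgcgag
The Glb1, Ctsl and Atp6v0d1 windows lay at least in part under a naive peak. The Lgmn window belongs to a start inside the gene and lay beside the Lgmn peak, and the second Lgmn window, which lay under the peak at the outer start, had no E-box core.

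The lists differed in length and depth. They held 14731 naive, 10861 day 15 and 3352 day 30 peaks, while the depth recovered from the peak values was 39.2, 93.5 and 82.2 tags per 10 kb of genome, 2.38 times the naive depth at day 15 and 2.1 times at day 30. Pileup means the number of tags stacked on the summit of a peak, recovered from the authors' fold and p-value, and its median over all peaks was 16, 19 and 17 tags (naive, day 15, day 30). Of the 16 alveolar macrophage markers examined, the naive list had 8 with a peak at a gene end, the day 15 list 5 and the day 30 list 1, where only Cd68 was left, and Siglecf, Marco, Car4, Chil3, Fabp4, Krt79 and Plet1 had none in any list. The share of all protein-coding genes with such a peak fell as well, from 34.7% (naive) to 29.6% (day 15) and 12.8% (day 30). A lower marker count is therefore not specific to these markers. Of the markers of other cells, none of 10 epithelial or tumour genes had one in the naive list, 1 (Muc1) did at day 15 and none at day 30. The counts in the naive, day 15 and day 30 lists were 1, 1 and 0 of 9 for monocytes and interstitial macrophages (Maf), 1, 1 and 1 of 6 for neutrophils (S100a8), 2, 2 and 0 of 7 for T cells (Cd3d and Cd2) and 0, 0 and 0 of 5 for B cells. The part of such cells in the results below was not tested, and in bulk samples fewer macrophages and less open chromatin per macrophage cannot be told apart. The median fold over local background of all peaks was 6.8, 5.65 and 5.53 (naive, day 15, day 30), and library quality was not tested.

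Naive alveolar macrophages had a boundary peak, a peak no more than 1000 bp from one of the 2 gene ends, at 30 of the 39 lysosomal genes. That is 76.9% (interval 61.7 to 87.4), against 34.7% of all protein-coding genes. At day 15 the number was 24 (61.5%, interval 45.9 to 75.1), against 29.6% of all genes, and at day 30 it was 10 (25.6%, interval 14.6 to 41.1), against 12.8%. In each list the share was about 2 times that of all genes. The peaks themselves were of ordinary height, and the median pileup of the strongest boundary peak was 17, 22.5 and 17 tags in the naive, day 15 and day 30 lists, against 19, 22 and 17 tags over all genes with one.

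**Figure D1:**
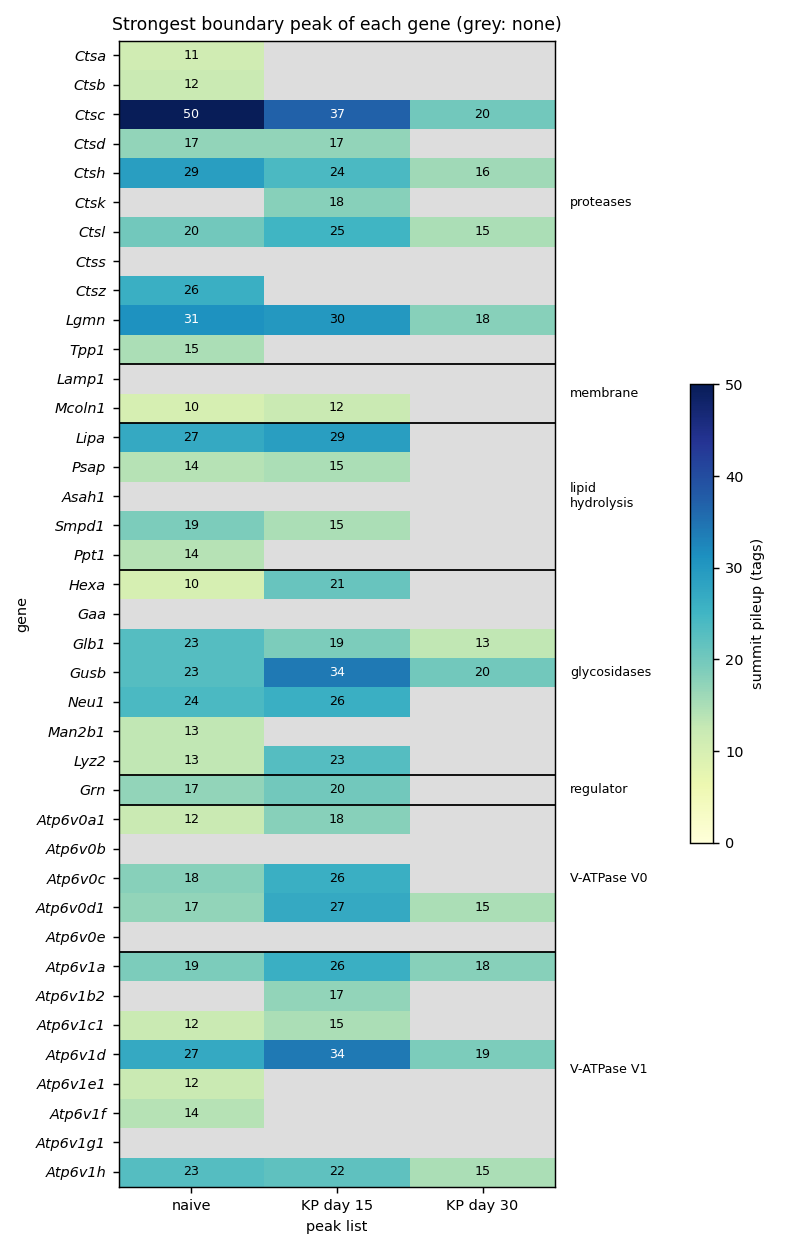
Summit pileup, in tags, of the strongest boundary peak of each of the 39 genes (rows, grouped by role) in the naive, KP day 15 and KP day 30 peak lists (columns), 1 list per group. Grey cells have no boundary peak, and coloured cells number 30, 24 and 10 from left to right, with Ctsc highest in the naive and day 15 lists.

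Each gene is called kept, lost or gained by its boundary peak, by whether the peak was called and not by how much DNA was open. At day 15, 22 of the 30 genes covered in the naive list were kept (73.3%, interval 55.6 to 85.8), and 8 were lost. Over all protein-coding genes 79.6% were kept and 20.4% lost, and for genes in the same deciles of naive peak strength, measured by the authors' −log10 p, 22.2 of 30 would have been kept. Genes gained were Ctsk and Atp6v1b2, 2 of the 9 without a naive boundary peak (22.2%, interval 6.32 to 54.7), against 3.04% of all such genes. At day 30, 10 of the 30 naive genes were kept (33.3%, interval 19.2 to 51.2), 20 were lost and none was gained, against 36.5% kept, 63.5% lost and 0.245% gained over all genes and 8.09 kept at equal strength. With each list cut to its 3352 strongest peaks, 8 of the 39 genes had a naive boundary peak. Of these, 6 were kept at day 30, and 4 other genes of the 39 were gained. Over all 21883 genes, 2794 then had a naive boundary peak, of which 67.9% were kept, and 905 others were gained. Without peaks of high local background 26 of the 39 genes had a naive boundary peak, and 3 others were gained at day 30. Over all genes 6458 then had one, and 918 others were gained, against 35 with all peaks. Between the tumour lists, 10 of the 24 day 15 genes were kept at day 30 (41.7%, interval 24.5 to 61.2), 14 were lost and none was gained, against 42.1%, 57.9% and 0.506% over all genes and 9.46 kept at equal day 15 strength. The kept counts therefore lay within about 2 genes of those of other genes with peaks of like strength in each comparison.

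**Figure D2:**
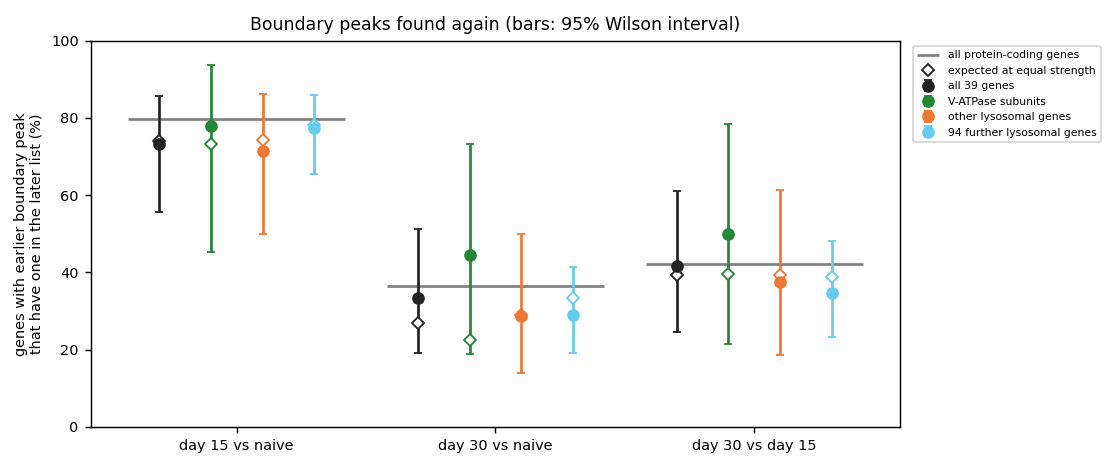
Share of genes with a boundary peak in the earlier list that had one in the later list, in percent, for day 15 against naive, day 30 against naive and day 30 against day 15. Filled points are the 39 genes, their V-ATPase and other members and 94 further lysosomal genes, with 95% Wilson intervals, open diamonds the share at equal peak strength and grey lines all protein-coding genes. All intervals of the 39 genes hold both the diamond and the grey line.

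The naive height of a peak went with what became of it, as peak strength did over all genes. There 39.9% of the lowest decile of naive strength and 99.7% of the highest were kept at day 15, and 5.0% and 91.7% at day 30. The 22 genes kept at day 15 had naive pileups of 10 to 50 tags with a median of 19, and the 8 lost genes 11 to 26 tags with a median of 13.5. The 10 genes kept at day 30 had naive pileups of 17 to 50 tags with a median of 23, and the 20 lost genes 10 to 27 tags with a median of 14. The ranges overlapped in both comparisons. Among the genes lost at day 15, the 26 naive tags were those of Ctsz, which counted as lost only by the window. The next highest of the 8, Tpp1, had 15 tags.

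Among the 11 proteases, the highest peaks stayed in all lists and a row of weaker ones was seen only in naive macrophages. Ctsc, which encodes the dipeptidyl peptidase that activates serine proteases of immune cells, had the highest peak of the set, with 50, 37 and 20 tags in the naive, day 15 and day 30 lists. Lgmn, the asparaginyl endopeptidase that processes other cathepsins, had 31, 30 and 18 tags, and Ctsh, an aminopeptidase, 29, 24 and 16. Ctsl, a cysteine endopeptidase, had 20, 25 and 15 tags. These 4 genes are all the proteases with a day 30 boundary peak, 4 of the 9 naive ones, where 3.23 were expected at equal strength. Ctsd, the main aspartic protease of lysosomes, had 17 tags in the naive list, 17 at day 15 and no start peak at day 30. Ctsa, a carboxypeptidase that also protects Neu1 and Glb1 from degradation, had 11 tags, Ctsb 12 tags and Tpp1, a tripeptidyl peptidase, 15 tags, all in the naive list alone. Together with Ctsz these made 4 proteases lost at day 15 and 5 kept, against 7.1 kept at equal strength. The Ctsa peak lay nearest to an end of Neurl2 and the Tpp1 peak overlapped Taf10, so that neither need belong to the protease gene.

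Ctsz counted as lost only by the window. Its peaks in the 3 lists overlapped, with 26, 27 and 25 tags (naive, day 15, day 30). They lay 993 bp inside the start of the gene in the naive list and 1007 and 1008 bp inside it in the day 15 and day 30 lists, on either side of the limit, and with a window of 2000 bp the gene was kept at both times. Ctsk, a collagen-degrading cathepsin, had no naive boundary peak, 18 tags at chr3:95499542-95499807 at day 15, 332 bp inside the gene start, and none at day 30. Its only naive peak lay 2466 bp beyond the other end, at chr3:95511853-95512112, with 12 tags. Ctss, a cathepsin of antigen-presenting cells, had no boundary peak in any list, and its 3 naive peaks farther away, with 7, 12 and 10 tags, had no counterpart assigned to it at day 15 or day 30.

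Of the 5 genes of lipid breakdown, 3 had a boundary peak at day 15 and in the naive list, and none had one at day 30. Lipa, the acid lipase that frees cholesterol and fatty acids, had 29 tags at day 15 and 27 in the naive list, and Smpd1, the acid sphingomyelinase, had 15 at day 15 and 19 in the naive list. Psap, the precursor of the saposins that present sphingolipids to their hydrolases, had 15 tags at day 15 and 14 in the naive list. Ppt1, a thioesterase that removes fatty acids from proteins, had 14 tags in the naive list alone, and Asah1, the acid ceramidase, had no boundary peak. At day 15, 3 of the 4 naive genes were kept, where 3.22 were expected at equal strength, and at day 30 none of the 4 (upper bound 49.0%), where 1.26 were expected. Among the 20 of the 39 genes lost at day 30, Lipa had the highest naive peak, in a decile of strength in which 56.9% of genes were kept. A second Lipa peak, 11384 bp inside the gene in the naive list, stayed in all 3 lists with 16, 18 and 17 tags in the naive, day 15 and day 30 lists (naive position chr19:34515731-34516090).

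Of the 7 glycosidases, 6 had a naive boundary peak and 5 of these were kept at day 15, where 4.24 were expected, and 2 at day 30, where 1.43 were expected. Gusb, the beta-glucuronidase, had 23, 34 and 20 tags in the naive, day 15 and day 30 lists, while Glb1, the beta-galactosidase, had 23, 19 and 13. At Glb1 1 broad naive peak of 760 bp faced 2 narrower peaks at day 15, and some of these peaks also lay at an end of the overlapping gene Tmppe. Neu1, a sialidase, had 24 tags in the naive list, 26 at day 15 and none at day 30. Hexa, a subunit of beta-hexosaminidase, had 21 tags at day 15 and 10 in the naive list, in peaks that also overlapped an end of Tmem202, and Lyz2, the lysozyme of macrophages, had 23 at day 15 and 13 in the naive list. Their ratios of day 15 to naive pileup were the largest of the group. Man2b1, an alpha-mannosidase, had 13 tags in the naive list alone, and Gaa, which digests glycogen, had no boundary peak.

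Among the remaining genes outside the pump, Grn, which encodes the lysosomal regulator progranulin, had 17 tags in the naive list, 20 at day 15 and none at day 30. Mcoln1, a calcium channel of the lysosomal membrane, counted as kept at day 15 but by a different peak. The naive peak, with 10 tags, lay beyond the end of the gene, nearest to Pnpla6, and the day 15 peak, with 12 tags at chr8:3500343-3500619, covered the start and both E-box cores printed above. Lamp1, an abundant glycoprotein of the lysosomal membrane, had no peak in any list at its promoter with 4 E-box cores.

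The V0 sector of the proton pump had 3 of its 5 genes covered in the naive list, all 3 at day 15 and 1 at day 30, where 2.11 and 0.433 were expected at equal naive strength. Atp6v0d1, which joins the central stalk to the membrane ring, had 17, 27 and 15 tags in the naive, day 15 and day 30 lists. It was kept at day 30 from a decile of naive strength in which 16.2% of genes were. Atp6v0a1, the subunit through which protons pass, had 12 tags in the naive list, 18 at day 15 and none at day 30. Atp6v0c, the ring subunit, had its naive peak of 18 tags 983 bp inside the far end of the gene and its day 15 peak of 26 tags across the start, at chr17:24169361-24169787, and these did not overlap. Atp6v0b and Atp6v0e had no boundary peak in any list, although both had an E-box core in the promoter.

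In the V1 sector, 6 of 8 genes were covered in the naive list, of which 4 were kept at day 15, against 4.48 at equal strength, and 3 at day 30, against 1.59. Atp6v1d, of the central stalk, had 27, 34 and 19 tags in the naive, day 15 and day 30 lists, while Atp6v1h, a regulatory subunit, had 23, 22 and 15. Atp6v1a, the catalytic subunit, had 19, 26 and 18 tags, and its day 30 peak, at chr16:44139636-44139959, covered the outer end of the gene at its start side and also an end of the neighbouring gene Naa50. That peak overlapped neither the naive nor the day 15 peaks counted for Atp6v1a. Atp6v1c1 had 12 tags in the naive list, 15 at day 15 and none at day 30. Atp6v1e1 and Atp6v1f had 12 and 14 tags in the naive list alone. Atp6v1b2, which pairs with the catalytic subunit, had 17 tags at day 15 alone, at chr8:69088608-69088890, and Atp6v1g1 had no boundary peak. Over both sectors 4 of the 9 naive genes were kept at day 30 (44.4%, interval 18.9 to 73.3), where 2.02 were expected, and 6 of the 21 other genes (28.6%, interval 13.8 to 50.0), where 6.07 were expected. The 2 intervals overlap, and 1 of the 4 pump genes, Atp6v1a, was kept by a day 30 peak that overlapped no naive peak.

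**Figure D3:**
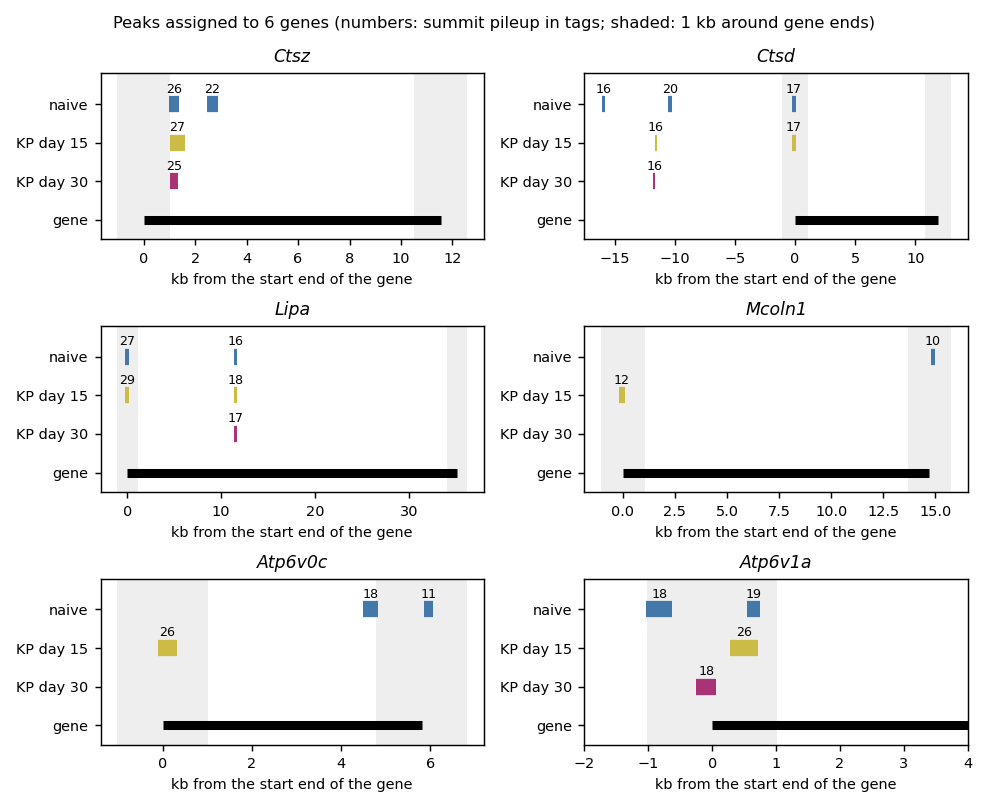
Peaks assigned to or near Ctsz, Ctsd, Lipa, Mcoln1, Atp6v0c and Atp6v1a in the naive, KP day 15 and KP day 30 lists, by distance in kb from the start end of the gene, with the gene as a black bar (cut off at 4 kb for Atp6v1a), 1 kb around its ends shaded and the summit pileup in tags above each peak. At Mcoln1 and Atp6v0c the day 15 peak lies at the start and the naive peaks at the far end, and at Lipa the peak inside the gene is in all 3 lists.

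Heights could be compared at the 20 genes whose strongest naive boundary peak overlapped a day 15 one. The day 15 pileup was 0.74 to 2.1 times the naive one, with a median of 1.13, against 1.04 over the 5923 such genes of the genome. Ranks are percentiles, with ties averaged, within deciles of naive strength formed among these 5923 genes alone. Hexa had the highest ratio, 2.1, at percentile 93.3 of its decile. Lyz2, in the same decile, followed with 1.77, at percentile 73.0, and the median ratio of that decile was 1.55. Atp6v0d1 with 1.59 and Gusb with 1.48 were at percentiles 93.2 and 95.7 of their deciles, while Psap, with 1.07, was at percentile 4.05. Taken per unit of depth, all 20 ratios were below 1, with a median of 0.474, against 0.436 over all genes, of which 0.287% were above 1.

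At day 30 the pileups of 9 genes were 0.4 to 0.882 times the naive ones, lowest for Ctsc and highest for Atp6v0d1, with a median of 0.652, against 0.6 over 2691 genes. Relative to day 15 the 8 genes that could be compared lay between 0.541 and 0.682, with a median of 0.594, against 0.611 over 2646 genes. The tumour lists have similar depth, and per unit of depth the median against day 15 was 0.676 for the lysosomal genes and 0.695 for all genes. The genes thus stood close to the median gene in each comparison of heights, with no replicate to give that distance an error.

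**Figure D4:**
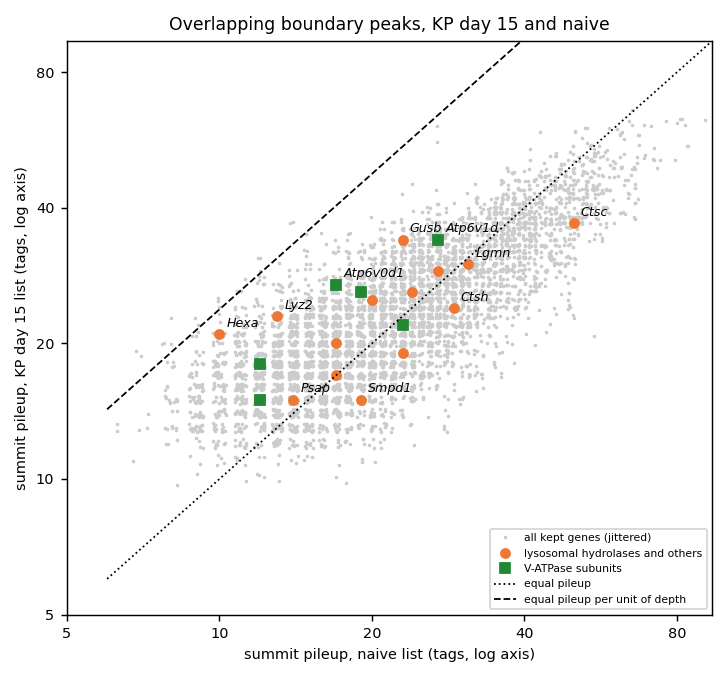
Summit pileup at day 15 against naive, in tags on log axes, for the strongest naive boundary peak of each kept gene that overlapped a day 15 peak: grey, all 5923 genes, orange, lysosomal hydrolases and others, green, V-ATPase subunits, 20 genes in all. The dotted line marks equal pileup and the dashed line equal pileup per unit of depth, below which all 20 genes lie.

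Peaks away from the gene ends were fewer in the tumour lists and, of the naive ones, a smaller share was found again than at the gene ends, as was the case over all genes. Within 50 kb, 48 naive, 35 day 15 and 12 day 30 peaks had one of the 39 genes as the nearest protein-coding gene end. Of these, 22, 11 and 4 lay more than 1000 bp from either end. Of all 48 naive peaks, 28 overlapped a day 15 peak, against 65.8% over all genes and 29.1 expected at equal strength, and 10 a day 30 peak, against 23.2% and 8.0 expected. Of the 35 day 15 peaks, 12 overlapped a day 30 peak, against 30.2% over all genes and 10.2 expected. Of the 22 naive peaks away from the ends, 8 overlapped a day 15 peak (36.4%, interval 19.7 to 57.0), against 54.9% over all genes and 10.6 expected at equal strength. At the gene ends 20 of 26 did (76.9%, interval 57.9 to 89.0), where 18.8 were expected. Over all genes, too, the share was lower away from the ends (54.9%) than for all assigned naive peaks (65.8%). At day 30, 1 of the 22 was found (4.55%, interval 0.807 to 21.8), the Lipa peak, against 11.7% over all genes and 1.4 expected. Between the tumour lists, 3 of the 11 such day 15 peaks were found at day 30 (27.3%, interval 9.75 to 56.6), at Ctsd, Ctsz and Lipa, against 17.3% over all genes and 1.45 expected.

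The distant peaks shared by the naive and day 15 lists include one 34650 bp before Ctsc, at chr7:88243063-88243374 in the naive list, with 13 tags at day 15 and 12 in the naive list. A peak 10811 bp outside Ctsh, at chr9:90042902-90043456, had 31 tags at day 15 and 16 in the naive list, the highest peak of the gene at day 15. A peak 16653 bp before Psap, at chr10:60260588-60260975, had 20 tags at day 15 and 21 in the naive list. Of the 35 day 15 peaks, 6 overlapped no naive peak (17.1%, interval 8.1 to 32.7), against 12.2% over all genes. They were the boundary peaks of Ctsk, Mcoln1, Atp6v0c and Atp6v1b2 and peaks outside Ctsd and Atp6v1c1. The peak before Ctsd was in both tumour lists and not in the naive list, with 16 tags at chr7:142399305-142399510 at day 15 and 16 tags at chr7:142399430-142399654 at day 30. The nearest naive peak, with 20 tags, lay about 1 kb closer to the gene at chr7:142398095-142398361. Of the 12 day 30 peaks, 2 overlapped no naive peak (16.7%, interval 4.7 to 44.8), against 3.45% over all genes, and 1 overlapped no day 15 peak, against 5.53%. The other of the 2, a peak of 13 tags outside Atp6v1c1 at chr15:38644219-38644429, was in the day 30 list alone but lay just beside a naive peak of 10 tags at chr15:38644448-38644647.

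Peaks and E-box cores could be set side by side at the 19 cores of the 12 genes. Naive peaks covered 4 of them, day 15 peaks 7 and day 30 peaks 3. Cores under a day 15 peak and no naive peak were the outer one of Ctsd, both of Mcoln1 and that of Atp6v1a, while that of Ctsl ran past the end of its day 15 peak and lay whole under the day 30 and naive ones. In a split chosen after the values were seen, 8 of the 12 genes with a core had a naive boundary peak, of which 7 were kept at day 15, against 5.88 at equal strength, and 5 at day 30, against 2.08. Kept here means any boundary peak of the gene and not a peak over the core. The Lgmn core lay under no peak, and the day 30 peak of Atp6v1a missed its core and overlapped no naive peak. Mcoln1 was kept at day 15 by a peak that did not overlap the naive one. Of the 20 genes with a window and no core, 18 had a naive boundary peak, of which 12 were kept at day 15, against 13.2, and 3 at day 30, against 4.7. Over all protein-coding genes with a core, 78.0% of 754 were kept at day 15, against 77.8% at equal strength, and 37.8% at day 30, against 33.5%. Genes without a core had 80.6% of 5511 kept at day 15 and 37.3% at day 30, against 80.2% and 37.4%.

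**Figure D5:**
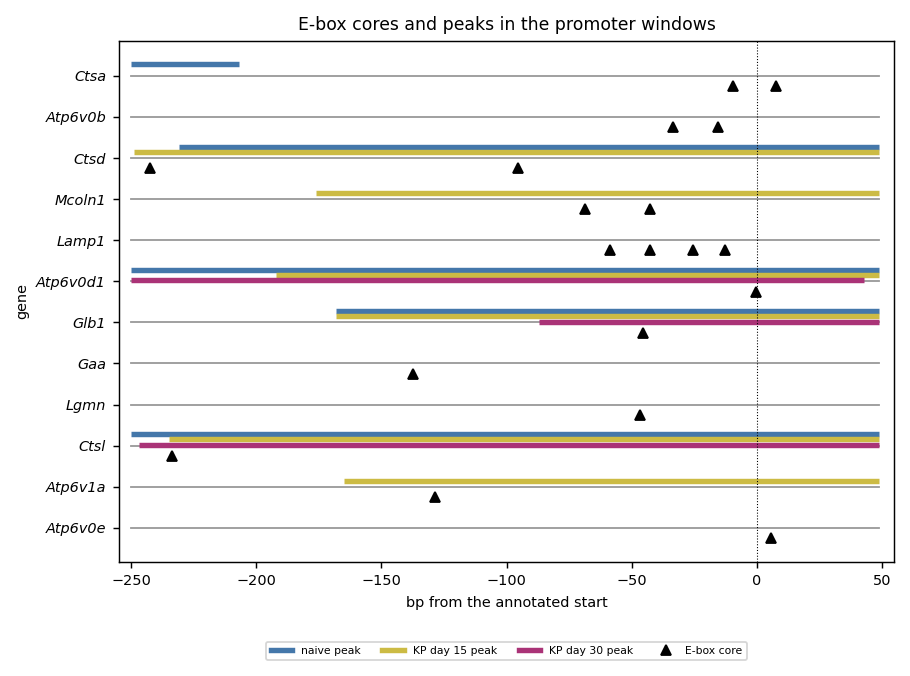
Positions of E-box cores (triangles) in the promoter windows of 12 lysosomal genes, in bp from the annotated start, with the stretches covered by naive, KP day 15 and KP day 30 peaks as coloured bars. Of the 19 cores, 4 lie under naive, 7 under day 15 and 3 under day 30 peaks, and the windows of Lamp1, Gaa, Lgmn, Atp6v0b and Atp6v0e are under none.

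A further 94 lysosomal genes, listed by function, were set beside the 39, group by group. Of them, 52 had a boundary peak at day 15 and 62 in the naive list. Of the 62, 48 were kept (77.4%, interval 65.6 to 86.0), where 48.5 were expected at equal strength. Another 4 were gained, Ppt2, Lamp2 and Tfec among them. These were 12.5% of the genes without a naive boundary peak (interval 4.97 to 28.1), against 3.04% over all protein-coding genes without one. At day 30, 18 of the 62 were kept (29.0%, interval 19.2 to 41.3), where 20.7 were expected. Membrane proteins and transporters kept 15 of 19 at day 15 and 11 of 19 at day 30, where 16.1 and 8.83 were expected. Among those kept were the scavenger receptor gene Cd68, with 21, 25 and 13 tags in the naive, day 15 and day 30 lists, the enzyme receptor Scarb2 with 22, 32 and 14, and the cholesterol carrier Npc2 with 43, 41 and 16. Slc29a3, Mcoln2 and Ostm1 were lost at day 15.

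The other 30 hydrolases kept 17 of 19 at day 15 and 3 of 19 at day 30, where 15.6 and 5.84 were expected. Ctso was among those kept at day 15, and Arsa, an arylsulfatase with 25 naive tags, and Manba were lost. Gla and Galns were among the 3 kept at day 30. Of the other V-ATPase genes 4 of 7 were kept at day 15, where 4.98 were expected, with Tcirg1 and Atp6v0d2 among them and Atp6v0a2, Atp6v1g3 and Atp6ap1 lost, and none of 7 at day 30 (upper bound 35.4%), where 1.59 were expected. In the group that sorts enzymes to lysosomes 3 of 4 were kept at day 15, where 2.86 were expected, M6pr and Gga1 among them, and Gnptab was lost. The strongest day 15 and naive peaks of Tcirg1, and likewise those of Gga1, did not overlap. M6pr, a mannose 6-phosphate receptor, was the only one of the 4 kept at day 30, where 1.29 were expected, with 48, 47 and 32 tags in the naive, day 15 and day 30 lists.

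The genes of the MiT/TFE factors and of nutrient sensing at the lysosome kept 9 of 13 at day 15 and 3 of 13 at day 30, where 9.01 and 3.11 were expected. Tfeb had 22 tags at day 15 and 15 in the naive list, Tfe3 had 17 at day 15 and 12 in the naive list and Mitf had 21 at day 15 and 22 in the naive list, all with no boundary peak at day 30. The Tfeb peaks counted lay apart, at chr17:47736952-47737172 at day 15 and chr17:47737505-47737900 in the naive list. Tfec had 14 tags at day 15 and no boundary peak in the other lists. Lamtor5, Rraga and Flcn, whose products signal from the lysosomal surface, were lost at day 15. Lamtor1, with 22, 27 and 16 tags in the naive, day 15 and day 30 lists, Lamtor4 with 27, 21 and 13 and Mtor with 30, 30 and 14 were the 3 of the group left at day 30.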

How the data were processed

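ATAC-seq peak lists of alveolar macrophages, 1 per group, were used. The submitters' processing notes name Bowtie2 2.3.4.1, MACS2 2.1.1 and the build mm10. Not given in the sources used here are read filters, shifts for the transposase and pooling before calling. The lists have no header. Per their values, the deposited columns are a score (10 times the −log10 q in nearly all peaks), the fold over local background (a ratio), the −log10 p-value, the −log10 q-value and the summit position. The authors' values describe and rank peaks within a list.

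Summit pileup and local background were solved from the fold (1 added to pileup and background alike) and the Poisson tail p (within 0.001 on the −log10 scale for every peak). Depth is the background floor, for tags extended to 200 bp in windows of 10 kb. The depth unit is tags as the peak caller counted them. The step was tested on simulated peaks.

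Gene ends came from RefSeq (GRCm38.p6), and coordinates are 1-based. A boundary peak lay within 1000 bp of either gene end, and other peaks went to the nearest protein-coding gene end within 50 kb. Peaks overlapped from 1 bp. Kept counts expected at equal strength sum the share kept in each of 10 strata of earlier −log10 p over all genes. Wilson intervals are at 95%. No p-values between conditions were computed. The members and lists were chosen with earlier results of these data known. All 39 members are named, and of each further list up to 4 genes whose status differed at day 15, up to 2 kept ones and up to 4 with a day 30 peak, in list order. A few of the genes so chosen are not reported here. Computations used Python 3.11.15, numpy 2.4.6, pandas 2.3.3 and scipy 1.17.1.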

Additional observations from a re-analysis of the deposited data

How the results depend on the processing

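Of 48 values recomputed under other settings, 40 stayed within 1.5 times the value given and 8 did not. With each list cut to its 3352 strongest peaks, 8 naive, 10 day 15 and 10 day 30 genes of the 39 were covered, and 7 assigned peaks were left in the naive list and 11 at day 15. Kept genes were then 7 of 8 at day 15 and 6 of 8 at day 30, and 4 were gained at day 30 (Atp6v0d1, Atp6v1a, Ctsl and Gusb). Equal lengths bring losses and gains together by construction. Over all 21883 genes, 2794 had a naive boundary peak, of which 76.4% and 67.9% were kept, and 905 others were gained at day 30. In another setting, peaks whose local background was over 3 times the genome-wide level were left out, which removed more naive than tumour peaks. Of the 39 genes 26 then had a naive boundary peak, and 5 others were gained at day 15. At day 30, 3 were gained (Atp6v1a, Ctsc and Gusb). Over all genes 6458 had a naive boundary peak, and 1488 and 918 others were gained, against 435 and 35 with all peaks. With a window of 500 bp 28 of the 39 genes had a naive boundary peak, and 1 other, Atp6v1a, was gained at day 30. Over all genes 7122 had a naive boundary peak at that window, and 33 others were gained. Counted by overlapping peaks, 20 genes were kept at day 15 and 9 at day 30.

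In an alternative chosen after seeing the data, boundary peaks were counted at annotated starts alone, for the 32 genes with a promoter window. Then 23 genes had one in the naive list, of which 17 were kept at day 15 and 8 at day 30, against 80.5% and 37.3% over all genes. Of the 9 without one, Ctsk, Mcoln1 and Atp6v0c were the 3 gained at day 15, against 3.2% over all genes. No paired analysis was possible because each group has 1 peak list, and for the same reason no sample could be left out. The naive list is the shallowest, its lowest pileup was 6 tags against 9 in either tumour list, and a gene without a peak was not detected at this depth, which does not show closed chromatin.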
